A study of Mus musculus with 12 samples.

Results

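The 9 genes described here build and coat the lipoproteins that the liver secretes. They are Apob, Mttp, Apoa1, Apoa4, Apoa5, Apoc2, Apoc3, Apoe and Lipc, 9 of the 22094 named genes in the liver table. They were taken by name with no filter on their values, but the set was chosen with earlier results of these data known. Each gene's level was the sum of its transcripts in FPKM, a fragment number scaled to transcript length and to the library, so that levels can be compared between genes. The FPKM of all named genes summed to between 1.70e+06 and 5.58e+06 per liver, and whether the deposited values hold a further scaling between livers is not given in the sources used here. The livers came from 12 male C57BL/6J mice that were housed singly and assigned at random at 5 weeks of age to 4 diets for 16 weeks. By the study's methods, all mice were fasted before the livers were taken. The normal diet (ND) group and the high-fat diet (HFD) group received the plain diets. The CLE group (CLL in the sample titles) received the high-fat diet with 1.5% by weight of an ethanol extract of chrysanthemum leaves, and the LU group the same diet with 0.003% luteolin, a plant flavone. Each group had 3 livers from separate mice of 21 weeks, which the study describes as representative of their groups, so the selection of the animals is part of what the values show.

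Apolipoprotein B is the structural protein of very low density lipoprotein (VLDL), and the microsomal triglyceride transfer protein encoded by Mttp loads it with lipid in the endoplasmic reticulum. Apoa1 encodes the main protein of high density lipoprotein (HDL), and the smaller exchangeable apolipoproteins move between particles in plasma. Apoc2 activates lipoprotein lipase, Apoc3 inhibits the clearance of triglyceride-rich particles, Apoa5 promotes their lipolysis, and Apoa4 is carried on HDL and chylomicrons. Apoe is the ligand through which remnant particles bind to receptors, and Lipc encodes hepatic lipase. In mice the liver is the main source of most of these proteins, and the intestine also makes Apob, Mttp, Apoa1 and Apoa4.

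The tissue label was checked against fixed marker genes. Of 8 hepatocyte markers, 7 were above 1 FPKM in every liver, and the other, albumin, was listed at 0 in 11 of 12 livers, so a listed 0 can be a failed estimate for a very abundant gene. None of the 9 genes was listed at 0 in any liver. Of 6 enterocyte markers, 5 were at or below 0.256 FPKM everywhere (Alpi and Sis at 0), and the sixth, Fabp2, which liver also expresses, lay between 178 and 347 FPKM. Compared with the average library, the ND and HFD libraries read genes of high GC content lower (Spearman's rho across 11401 genes from -0.374 to -0.141) and the CLE and LU libraries read them higher (0.16 to 0.48), so GC content and the supplement cannot be told apart. Over the 11544 tested genes together, the middle log2 fold change (the median) was 0.11 for HFD against ND, 0.16 for CLE against ND and 0.12 for LU against ND, and 0.02, -0.02 and 0.03 for CLE against HFD, LU against HFD and CLE against LU. Changes against the ND group are therefore also given relative to that median where the text says so. In these whole livers, fewer cells of a type and less RNA per cell cannot be told apart.

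Apoe had the highest level of the 9 genes in every group, at 18579 ± 661 FPKM in the ND group (mean ± SD, n = 3). Apoa1 followed at 5341 ± 704 FPKM, and Apoc3 (2403 ± 212) and Apob (2081 ± 188) came next, with ranges that overlapped in the ND group. Most of the Apob sum came from 2 short pieces of its last exons. The Apob transcripts that span the gene had an ND mean of 397 FPKM, below the ND means of Apoa4, Apoa5 and Apoc2. Apoa4, Apoa5 and Apoc2 had ND means of 1641, 1015 and 630.3 FPKM without overlap between neighbours. Mttp and Lipc were lowest, at 149 and 97.7 FPKM. The order of the first 4 was the same in all 4 groups, whereas Apoa4 and Apoa5 overlapped in the HFD, CLE and LU groups and Mttp overlapped with Lipc in each of these 3 groups.

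**Figure D1:**
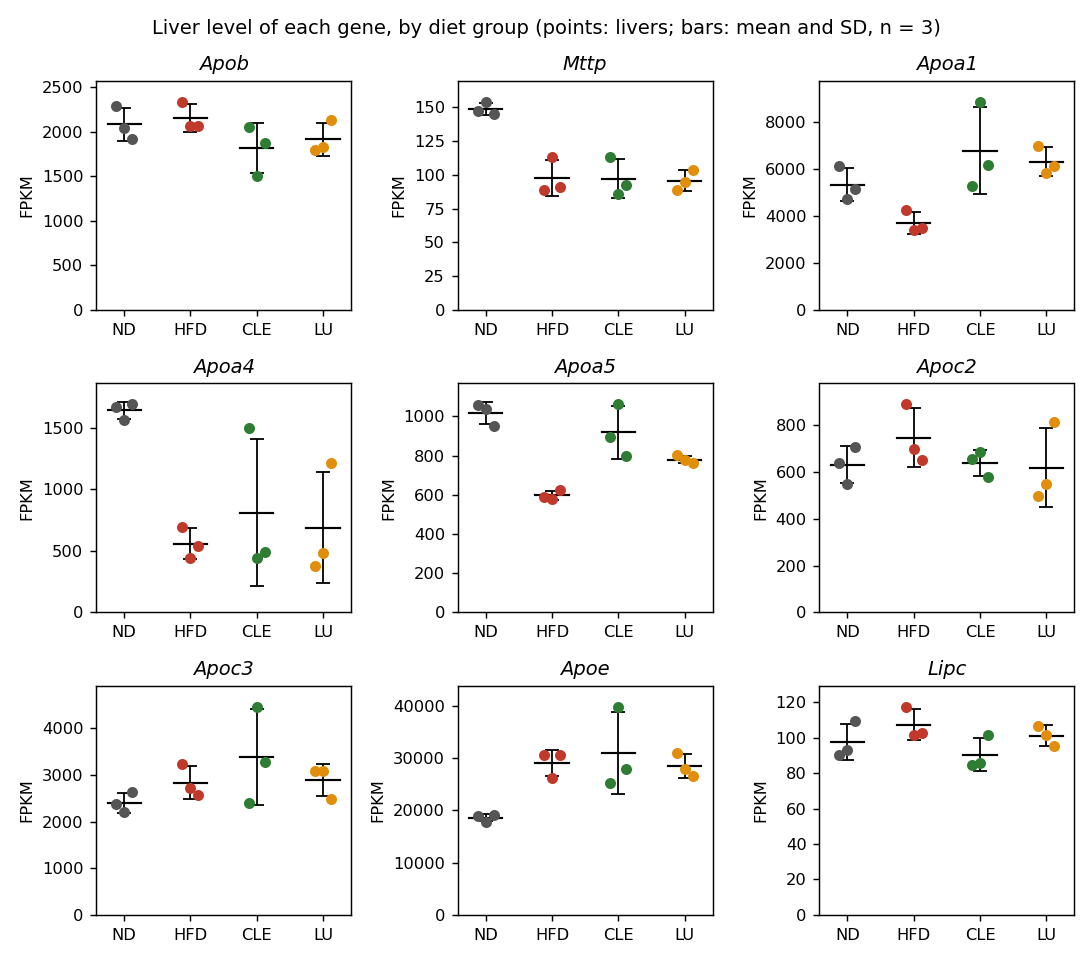
FPKM (vertical axes from 0) of each gene in each of the 12 livers by diet group, with points for livers and bars for the mean and SD of 3 livers. The 3 ND livers lie above all HFD livers for Mttp, Apoa1, Apoa4 and Apoa5 and below them for Apoe, and for Apoa4 CLE mouse 2 and LU mouse 8 lie above the other livers of their groups. Over all tested genes, 7.43% had every HFD liver below every ND liver and 29.04% had every HFD liver above.

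Whether the diets changed these genes was tested with limma on log2(FPKM + 1) over all tested genes, with Benjamini-Hochberg adjusted p-values and a threshold of 0.05. Between the HFD and ND groups, 3 of 9 genes passed (Apoa5, Mttp and Apoa4), beside 12.1% of all tested genes. All 3 were lower in the HFD group, beside 2.13% of all genes lower. Between the CLE and HFD groups, 2 of 9 passed (Apoa1 and Apoa5), beside 6.02% of all genes, and both were higher with CLE, beside 2.74% of all genes higher. Between the LU and HFD groups, 0 of 9 passed, beside 1.03% of all genes, and 2 of 9 (Apoa1 and Apoa5) were at an unadjusted p under 0.05, as were 2340 of the 11544 tested genes. Between the CLE and LU groups, 0 of 9 passed, beside 0.00866% of all genes, and 0 of 9 were at an unadjusted p under 0.05, beside 507 of the 11544 tested genes. Against the ND group, 2 of 9 passed in the CLE group (Mttp lower and Apoe higher), beside 27% of all genes, and 2 of 9 in the LU group (Mttp and Apoa4), beside 15% of all genes. Both were lower in the LU group, beside 3.79% of all genes lower. The median log2 fold change of the 9 genes was 0.05 for HFD against ND, 0.06 for CLE against HFD and -0.02 for LU against HFD. The comparisons of the CLE and LU groups share the same HFD livers and the same ND livers. Groups without overlap, given below for single genes and transcripts, were common over all tested genes. Every CLE liver lay above every HFD liver for 16.3% of them and below for 15%, and the LU livers did so for 13.1% and 16.9%. Against the ND livers these shares were 32.2% and 10.2% for CLE and 29.5% and 11.5% for LU.

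**Figure D2:**
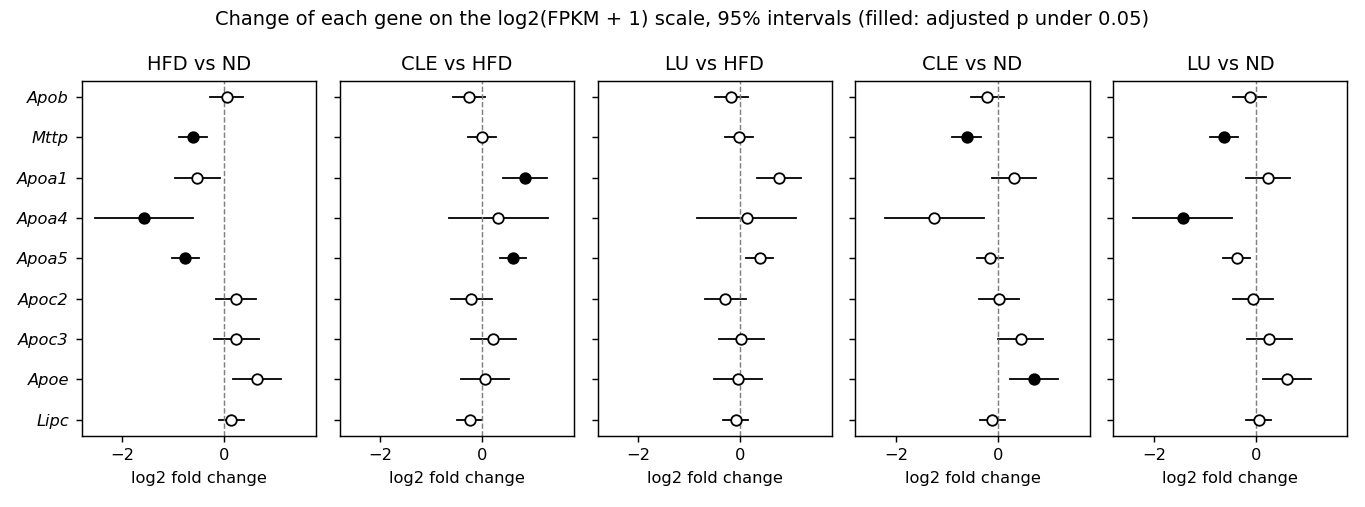
Log2 fold change of each gene on the log2(FPKM + 1) scale (horizontal axes) in 5 comparisons, with 95% intervals as lines and filled points where the adjusted p was under 0.05. Mttp sits near -0.6 in all 3 comparisons with the ND group and near 0 against the HFD group, and Apoa1 and Apoa5 sit below 0 in HFD against ND and above 0 in CLE and LU against HFD.

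Mttp (ENSMUSG00000028158, minus strand, chr3:138089854-138144968 in GENCODE M21 on GRCm38), the lipid loading protein of VLDL assembly, was lower in all 3 high-fat groups. Its level was 147, 154 and 145 FPKM in ND mice 2, 3 and 4 and 88.5, 113 and 90.9 FPKM in HFD mice 12, 15 and 18. It was 113, 85.6 and 92.8 FPKM in CLE mice 2, 4 and 11 and 88.6, 94.3 and 104 FPKM in LU mice 2, 3 and 8. The ND livers lay above all 9 others, and the 3 high-fat groups overlapped. Mttp fell by 0.61 on the log2 scale between the ND and HFD groups (SE 0.13, adjusted p = 0.00863), a ratio of means of 0.656. The change relative to the median of all genes was -0.73. Against the ND livers, the change was -0.62 in the CLE livers (SE 0.13, adjusted p = 0.00684), and the LU livers gave -0.63 (SE 0.13, adjusted p = 0.01). The difference between CLE and HFD livers was -0.01 (95% interval -0.28 to 0.27) and that between LU and HFD livers -0.02 (95% interval -0.30 to 0.25), both within the spread between livers. All 3 calls against the ND group held when any 1 liver was left out. With the transcript of highest mean in place of the sum, the adjusted p was 0.0857 for HFD against ND and 0.055 for LU against ND, and with reference transcripts only it was 0.0858 for HFD against ND.

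Apob (ENSMUSG00000020609, plus strand, chr12:7977648-8016835), the protein on which VLDL is built, passed in no comparison when its transcripts were summed. Its level was 2285, 2044 and 1916 FPKM in the ND livers, 2335, 2059 and 2062 FPKM in the HFD livers, 2058, 1507 and 1874 FPKM in the CLE livers and 1793, 1828 and 2127 FPKM in the LU livers, in the same order of mice. CLE mouse 4 had the lowest value, and the CLE livers lay just below the HFD livers (log2 fold change -0.26, SE 0.15, adjusted p = 0.261). The change between HFD and ND livers was 0.05 (95% interval -0.27 to 0.37). Between CLE and ND livers it was -0.21 (adjusted p = 0.299), and -0.93 with an adjusted p of 0.021 when reference transcripts only were summed.

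The sum hid a difference between the transcripts of Apob. Of its 7 transcripts in the table, 4 span the gene, and 2 cover the last exons only. The 2 short pieces carried most of the summed FPKM. The spanning transcripts had 305, 425 and 461 FPKM in the ND livers, 273, 442 and 314 FPKM in the HFD livers, 203, 72.5 and 125 FPKM in the CLE livers and 111, 107 and 154 FPKM in the LU livers. Every CLE and LU liver lay below every ND and HFD liver. The short pieces had 1979.6, 1618 and 1455, then 2061, 1618 and 1748, then 1855, 1434 and 1749.6, then 1682, 1721 and 1973 FPKM in the same groups, and these overlapped. As a share of the Apob sum, the spanning transcripts made up 11.7% to 24.1% in the ND and HFD livers and 4.81% to 9.85% in the CLE and LU livers.

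When the spanning transcripts stood for Apob, a choice made after these values were seen, the level was lower in the CLE group than in the HFD group (log2 fold change -1.45, SE 0.31, adjusted p = 0.0302) and lower in the LU group than in the HFD group (-1.45, SE 0.31, adjusted p = 0.0451). It was also lower in CLE than in ND livers (-1.67, SE 0.31, adjusted p = 0.00441) and in LU than in ND livers (-1.67, SE 0.31, adjusted p = 0.00676). The HFD and ND groups did not differ beyond their spread (-0.22, SE 0.31, adjusted p = 0.704), and the short pieces passed in no comparison (-0.11, SE 0.16, adjusted p = 0.674 for CLE against HFD). The 2 calls against the ND group held without any 1 liver. The call for CLE against HFD was lost without any 1 HFD liver or without CLE mouse 4 (adjusted p up to 0.138), and that for LU against HFD without ND mouse 2, 3 or 4, any HFD liver, CLE mouse 11 or LU mouse 2 or 3 (up to 0.219). The LU libraries and CLE mice 4 and 11 also read long genes lower than the average library did (rho of -0.3 to -0.129 across genes), as did HFD mouse 12 (-0.154), whereas CLE mouse 2 did not (0.137). With a correction for gene length and GC content the change was -1.36, SE 0.28, adjusted p = 0.0301 for CLE against HFD and -1.27, SE 0.28, adjusted p = 0.0585 for LU against HFD. The spanning transcripts overlap the short pieces, so fragments are shared out between them, and the 2 parts were not tested against each other. Position along the transcript was not tested.

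**Figure D3:**
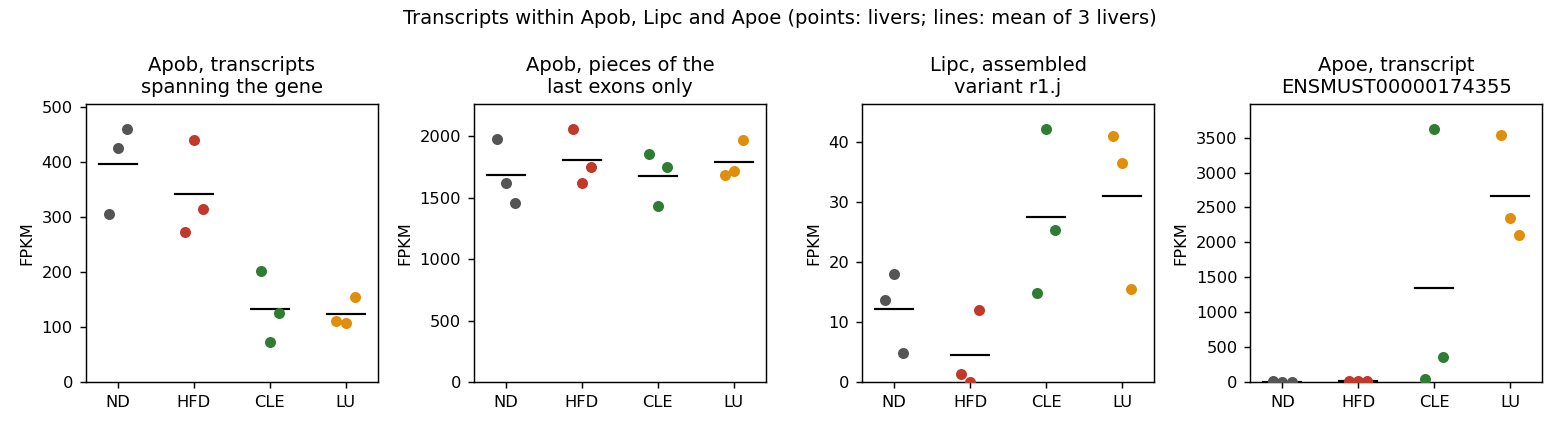
FPKM (vertical axes from 0) in each liver by diet group of the Apob transcripts that span the gene, the Apob pieces of the last exons, the assembled Lipc variant r1.j and the Apoe transcript ENSMUST00000174355, with lines at the mean of 3 livers. The spanning Apob transcripts are lower and the Lipc and Apoe transcripts mostly higher in the CLE and LU livers than in the ND and HFD livers, while the last exons of Apob show no such step.

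Apoa1, Apoc3, Apoa4 and Apoa5 lie in 1 cluster of 43.3 kb on chromosome 9, in that order, with Apoc3 on the opposite strand to the others. Their promoter windows are shown because Apoa4 and Apoa5 passed the test between HFD and ND livers and Apoa1 between CLE and HFD livers. The windows, from RefSeq on GRCm38.p6, run 5′ to 3′ from 250 bases before to 50 bases after an annotated start, all on the plus strand. Capitals mark matches to any of 6 short motifs searched (the TATA box TATAAA on the gene strand and, on both strands, the nuclear receptor half-site AGGTCA, its variant AGTTCA, an HNF4 site CAAAGTCCA, the E-box CACGTG and the half-site TGACG of the cyclic AMP response element). The windows are chr9:46228380-46228679 for Apoa1, chr9:46240594-46240893 for Apoa4 and chr9:46268358-46268657 for Apoa5, and the table holds none for Apoc3. The transcripts with most of the Apoa1 and Apoa4 sums start inside these windows, at 46228580 (ENSMUST00000034588) and 46240696 (ENSMUST00000034585). Both lie upstream of the annotated starts used here, and most of the Apoa4 window lies downstream of its transcript start.
Apoa1: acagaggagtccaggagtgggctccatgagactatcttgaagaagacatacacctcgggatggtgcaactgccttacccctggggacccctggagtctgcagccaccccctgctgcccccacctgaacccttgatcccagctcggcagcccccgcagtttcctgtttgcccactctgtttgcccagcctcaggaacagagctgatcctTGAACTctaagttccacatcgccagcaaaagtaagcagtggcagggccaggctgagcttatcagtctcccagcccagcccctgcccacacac
Apoa4: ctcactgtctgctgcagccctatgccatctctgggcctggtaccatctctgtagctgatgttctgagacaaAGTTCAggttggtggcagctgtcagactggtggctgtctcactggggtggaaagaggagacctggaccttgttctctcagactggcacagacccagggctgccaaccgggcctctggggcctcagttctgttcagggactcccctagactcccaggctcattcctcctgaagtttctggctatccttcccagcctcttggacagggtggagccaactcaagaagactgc
Apoa5: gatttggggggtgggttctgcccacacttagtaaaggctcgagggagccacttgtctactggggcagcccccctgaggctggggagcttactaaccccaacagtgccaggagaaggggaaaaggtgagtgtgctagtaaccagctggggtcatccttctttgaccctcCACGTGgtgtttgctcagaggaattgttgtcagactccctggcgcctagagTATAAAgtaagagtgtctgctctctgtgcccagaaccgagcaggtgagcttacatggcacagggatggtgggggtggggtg
The Apoa5 window holds TATAAA, 31 bases before the start, and CACGTG, the E-box core, 82 bases before it. From the other annotated start of this gene in RefSeq, at 46268633, the same letters lie 56 and 107 bases upstream, and the transcript with most of the Apoa5 sum, ENSMUST00000034584, starts further downstream at 46269078, outside the window. ENSMUST00000121598, which starts at 46268633, had means of 164, 103, 103 and 94 FPKM in the ND, HFD, CLE and LU livers. ENSMUST00000034584 had 850, 494, 815 and 685 FPKM in the same groups. Fragments are shared out between these overlapping transcripts. These motifs occur in 8.32% and 7.15% of all 32851 windows of this length. The Apoa1 and Apoa4 windows hold AGTTCA, a nuclear receptor half-site variant that is found in 13.99% of all windows, read as TGAACT in Apoa1. AGTTCA was added to the search after the sequences were seen. A match is a run of letters and not a measured binding site.

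Apoa5 (ENSMUSG00000032079, plus strand, chr9:46268633-46271919), which promotes the lipolysis of plasma triglyceride, fell with the high-fat diet and was higher again with CLE. Its level was 1059, 1035 and 952 FPKM in the ND livers and 588, 579 and 624 FPKM in the HFD livers. It was 894, 1061 and 798 FPKM in the CLE livers and 800.5, 776 and 762 FPKM in the LU livers. All CLE and LU livers lay above all HFD livers, and all LU livers lay below all ND livers, while CLE and ND livers overlapped. Over all tested genes, the same held for 16.3% (CLE above HFD), 13.1% (LU above HFD) and 11.5% (LU below ND). Apoa5 fell by 0.76 on the log2 scale between ND and HFD livers (SE 0.12, adjusted p = 0.00172), to 0.588 of the ND mean, and the change relative to the median gene was -0.88. This call held under every alternative run, including the removal of any 1 liver. Compared with the HFD group, Apoa5 rose in the CLE group (log2 fold change 0.61, SE 0.12, adjusted p = 0.0226), to 1.54 times the HFD mean. The call was lost without HFD mouse 12, 15 or 18 or CLE mouse 4 (adjusted p of 0.0633, 0.112, 0.058 and 0.0683) and when the CLE and HFD livers were fitted alone (0.0919). After the length and GC correction the rise with CLE passed, and over the other processing settings it was 0.45 to 0.71. In the LU group the value was 0.39 (SE 0.12, adjusted p = 0.123), which did not pass, and without CLE mouse 4 in the fit the adjusted p was 0.0477. Over the other processing settings the LU value was 0.28 to 0.48 and never passed. The difference between CLE and LU livers was 0.23 (95% interval -0.04 to 0.49). Against the ND group, the CLE value was -0.15 (adjusted p = 0.344), and -0.45 with an adjusted p of 0.0104 after the length and GC correction. The LU value was -0.38 (adjusted p = 0.0516), and -0.62 with an adjusted p of 0.00428 after that correction.

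Apoa1 (ENSMUSG00000032083, plus strand, chr9:46228580-46230466), the main HDL protein, lay higher in each supplemented liver than in each HFD liver. Its level was 6116, 4742 and 5164 FPKM in the ND livers and 4259, 3384 and 3480.3 FPKM in the HFD livers. It was 5295, 8861 and 6169.6 FPKM in the CLE livers, with mouse 4 highest, and 6993, 5826 and 6112 FPKM in the LU livers. The HFD livers lay below all others, and the ND, CLE and LU livers overlapped. Compared with the HFD group, Apoa1 rose in the CLE group (log2 fold change 0.84, SE 0.20, adjusted p = 0.0366), with a mean 1.83 times that of the HFD group. The call was lost without ND mouse 4 (adjusted p = 0.0509), HFD mouse 12 (0.0643), 15 (0.149) or 18 (0.0833), or CLE mouse 4 (0.134) or 11 (0.0555) in the fit, with the CLE and HFD livers alone (0.0969), with no filter (0.0922) and with the transcript of highest mean (0.0514). After the length and GC correction the rise with CLE passed, and over the other processing settings it was 0.62 to 0.84. CLE mouse 4 also had the highest rho with GC content of all libraries (0.48), and its bearing on the Apoa1 values was not tested. The LU livers gave 0.77 (SE 0.20, adjusted p = 0.0836), and 0.0287 without CLE mouse 4 in the fit. Over the other processing settings the LU value was 0.61 to 0.80 and never passed. For HFD against ND the value was -0.53 (SE 0.20, adjusted p = 0.111), and -0.67 with an adjusted p of 0.0172 after the length and GC correction. CLE and LU livers differed by 0.07 (95% interval -0.36 to 0.51).

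Apoa4 (ENSMUSG00000032080, plus strand, chr9:46240696-46243459), an apolipoprotein of HDL and chylomicrons, had the largest fold change of the 9 summed genes. Its level was 1671, 1560.3 and 1691 FPKM in the ND livers and 697, 444 and 536 FPKM in the HFD livers. It was 1498, 443 and 488 FPKM in the CLE livers and 374, 484 and 1210.1 FPKM in the LU livers. CLE mouse 2 and LU mouse 8 lay between the HFD and ND ranges and the other 4 supplemented livers were within or below the HFD range. The group means were 809.7 ± 596 FPKM (CLE) and 689.5 ± 454 FPKM (LU). Apoa4 fell by 1.57 on the log2 scale between ND and HFD livers (SE 0.45, adjusted p = 0.0372), to 0.341 of the ND mean. The call was lost without any 1 of the 6 ND and HFD livers, with adjusted p-values of 0.11, 0.0724 and 0.0976 without ND mouse 2, 3 and 4 and of 0.0637, 0.115 and 0.101 without HFD mouse 12, 15 and 18, and also with no filter (0.0879), the transcript of highest mean (0.0747) and reference transcripts only (0.0664). The fit uses 1 spread for all groups, and the SDs of 596 and 454 FPKM in the CLE and LU groups, against 70.2 and 128 FPKM in the ND and HFD groups, enter it. With the ND and HFD livers fitted alone, the change was the same and the adjusted p was 0.000552. The LU group was lower than the ND group (log2 fold change -1.44, SE 0.45, adjusted p = 0.048), a call lost without any 1 ND or HFD liver, CLE mouse 11 or LU mouse 2 or 3 (adjusted p from 0.0513 to 0.147), and with no filter (0.0984), the transcript of highest mean (0.0649) and reference transcripts only (0.0592). The CLE group gave -1.25 against ND (adjusted p = 0.0541), and -1.82 with an adjusted p of 0.00547 without CLE mouse 2. Against the HFD group the CLE value was 0.32 (95% interval -0.65 to 1.29) and the LU value 0.13 (95% interval -0.84 to 1.1).

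Apoc3 (ENSMUSG00000032081, minus strand, chr9:46232933-46235636), which slows the clearance of triglyceride-rich particles, lies between Apoa1 and Apoa4 and passed in no comparison. Its level was 2367, 2211 and 2631 FPKM in the ND livers, 3236, 2712 and 2559.7 FPKM in the HFD livers, 2409, 4460.4 and 3275 FPKM in the CLE livers and 3089, 3079 and 2495 FPKM in the LU livers. All groups overlapped, and CLE mouse 4 had the highest value. The change between HFD and ND livers was 0.24 (95% interval -0.21 to 0.68), and that between CLE and ND livers 0.45 (adjusted p = 0.11), which became 0.67 with an adjusted p of 0.0187 without CLE mouse 2. Whether Apoc3 and its neighbours changed by different amounts was not tested.

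**Figure D4:**
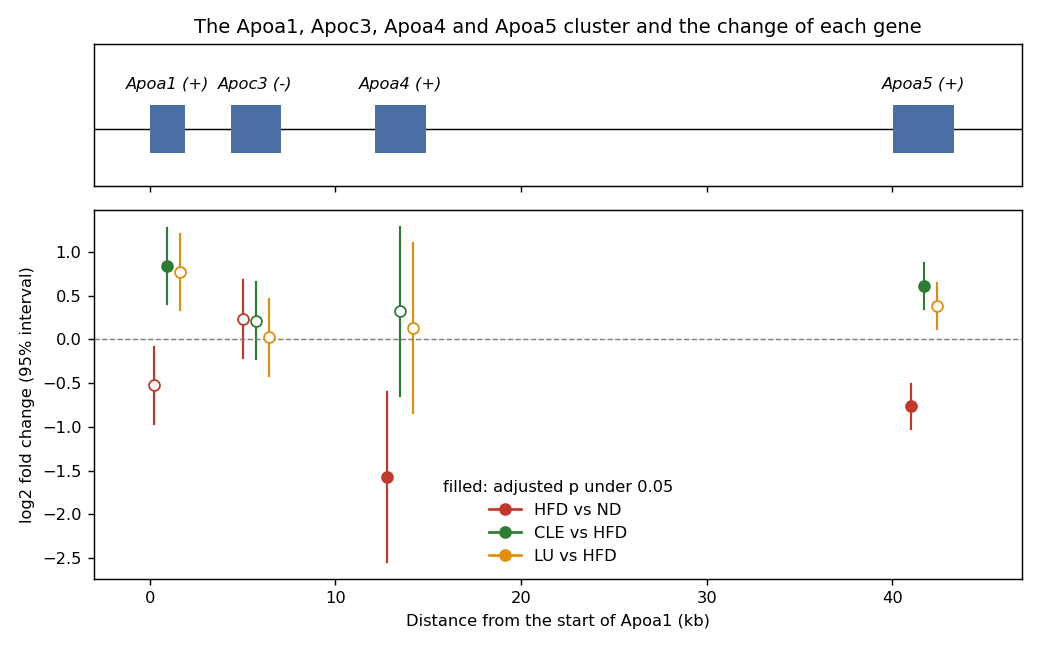
Upper panel, the 4 genes of the cluster as blocks at their distance in kb from the start of Apoa1, with the strand in brackets. Lower panel, the log2 fold change of each gene with its 95% interval in 3 comparisons, offset sideways for legibility and filled where the adjusted p was under 0.05. Apoa1, Apoa4 and Apoa5 have negative values in HFD against ND and Apoc3 has a positive value whose interval includes 0.

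Apoe (ENSMUSG00000002985, minus strand, chr7:19696109-19699188), the receptor ligand of remnant particles, was higher in every high-fat liver than in any ND liver. Its level was 18814, 17833 and 19091 FPKM in the ND livers and 30537, 26202 and 30552 FPKM in the HFD livers. It was 25262, 39771 and 27808 FPKM in the CLE livers and 30899.6, 27802 and 26576 FPKM in the LU livers, and CLE mouse 4 had the highest value. The 3 high-fat groups overlapped. The CLE group passed against the ND group (log2 fold change 0.71, SE 0.22, adjusted p = 0.0313), with a change relative to the median gene of 0.55. The call was lost without ND mouse 2, 3 or 4 (adjusted p of 0.0695, 0.0696 and 0.0742) or CLE mouse 4 (0.51, adjusted p = 0.119), under scaling by median of ratios (0.53, adjusted p = 0.108) and after the length and GC correction (0.27, adjusted p = 0.245). It was also lost with no filter (0.319), with the transcript of highest mean (0.0593) and with the 2 groups fitted alone (0.0904). The HFD and LU values against ND were 0.64 (SE 0.22, adjusted p = 0.0746) and 0.61 (SE 0.22, adjusted p = 0.0727), and without CLE mouse 4 in the fit their adjusted p-values were 0.0427 and 0.0411. Macrophages also express Apoe, and the summed level of 5 macrophage markers was 83.7 to 97.5 FPKM in the ND livers, 123 to 185 FPKM in the HFD livers, 126 to 160.3 FPKM in the CLE livers and 97.8 to 168 FPKM in the LU livers. Cd5l and Clec4f made up most of these sums, and Marco overlapped between ND (1.68 to 12.2 FPKM) and HFD livers (2.43 to 3.2 FPKM). The part of macrophages in the Apoe values was not tested.

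Most of the Apoe sum came from 2 of its 12 transcripts, ENSMUST00000167646 and ENSMUST00000174064. Another, ENSMUST00000174355, was listed at 6.55, 3.11 and 3.2 FPKM in the ND livers and 7.63, 12.9 and 11.4 FPKM in the HFD livers. It had 46.1, 3624 and 358 FPKM in the CLE livers and 3534, 2346 and 2107 FPKM in the LU livers. All CLE and LU livers were above all ND and HFD livers, and CLE mouse 2 was nearest to them. These values are shares of fragments assigned among overlapping transcripts of 1 gene, and no test was run on them.

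Apoc2 (ENSMUSG00000002992, minus strand, chr7:19671579-19677941), the cofactor of lipoprotein lipase, passed in no comparison. Its 6 transcripts carry the name of the neighbouring gene Apoc4 in the deposited table and were separated by transcript, so fragments of the 2 genes may be mixed. Its level was 639, 546 and 706 FPKM in the ND livers, 887, 697 and 651 FPKM in the HFD livers, 652, 684 and 577 FPKM in the CLE livers and 495, 547 and 809.7 FPKM in the LU livers. All groups overlapped, with the highest value in HFD mouse 12 and the lowest in LU mouse 2. The change was 0.24 for HFD against ND (95% interval -0.16 to 0.64), -0.21 for CLE against HFD (-0.61 to 0.19) and -0.29 for LU against HFD (-0.69 to 0.11).

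Lipc (ENSMUSG00000032207, minus strand, chr9:70798128-70952226), the hepatic lipase that trims remnants and HDL, passed in no comparison. Its level was 90.2, 93.4 and 109 FPKM in the ND livers, 118, 102 and 103 FPKM in the HFD livers, 84.4, 85.8 and 101 FPKM in the CLE livers and 107, 102 and 95.1 FPKM in the LU livers. The CLE livers lay just below the HFD livers, and the other groups overlapped. The CLE value against HFD was -0.25 (SE 0.11, adjusted p = 0.171), and the LU value was -0.08 (adjusted p = 0.699). Within the gene, the assembled variant ENSMUST00000034731.r1.j was at 13.7, 17.9 and 4.85 FPKM in the ND livers, 1.36, 0.00648 and 12.1 FPKM in the HFD livers, 14.8, 42.2 and 25.4 FPKM in the CLE livers and 41.1, 36.6 and 15.4 FPKM in the LU livers. The reference transcript ENSMUST00000034731 was at 55.2, 53.2 and 72, then 85.4, 73.6 and 61.6, then 49.1, 24.7 and 48.4, then 37.9, 36.1 and 56.1 FPKM in the same groups. The variant was thus higher and the reference transcript lower in each CLE and LU liver than in each HFD liver, while the ND livers overlapped the LU livers for both and the CLE livers for the variant. No test was run on either, since they overlap and fragments are shared out between them.

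Around these 9 genes, 85 genes of lipoprotein assembly, remodelling, uptake and regulation were listed by role, and 83 of them were above the minimum mean of 0.5 FPKM. Of the 83, 16 passed between HFD and ND livers (12 higher and 4 lower, against 1153 and 246 of all 11544 genes), 5 between CLE and HFD livers (1 higher and 4 lower, against 316 and 379) and 1 between LU and HFD livers (lower, against 35 higher and 84 lower). None passed between CLE and LU livers by limma, where 1 of all genes passed. At an unadjusted p under 0.05 were 5 of the 83, beside 507 of all genes. Against ND, 26 passed in the CLE group (18 higher and 8 lower) and 18 in the LU group (11 higher and 7 lower), against 2416 higher and 704 lower, and 1293 higher and 437 lower, of all genes. These splits moved with the scaling. With median-of-ratios scaling they were 10 higher and 7 lower for HFD against ND, 9 and 17 for CLE against ND and 7 and 11 for LU against ND, and over all genes 619 higher and 505 lower for HFD against ND. In that setting, CLE against ND gave 1221 higher and 1622 lower of all genes, and LU against ND 716 and 1044. After the length and GC correction the 83 genes gave 10 higher and 8 lower, 6 and 19, and 7 and 14 in these 3 comparisons, and all genes 678 and 594, 909 and 1232, and 550 and 702. The median log2 fold change of the 83 genes was 0.06 for HFD against ND, -0.03 for CLE against HFD and -0.03 for LU against HFD, beside 0.11, 0.02 and -0.02 over all genes. Of the 32 genes that passed anywhere, those with the smallest adjusted p are named. When only the CLE and HFD livers were fitted, none of the 5 calls between them held, and after the length and GC correction 2 did, with Pcsk6 among them. For HFD against ND, Pcsk6, Lmf1, Bmp1, Clu and Nr2f2, named below, did not pass with the transcript of highest mean or reference transcripts only. Srebf1 and Nr0b2 did not pass with the transcript of highest mean, and Nr0b2 and Nr2f2 did not with no filter.

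Among the 12 lipases and plasma remodelling genes, 5 rose and 2 fell between ND and HFD livers, beside 9.99% and 2.13% of all tested genes. Lpl, lipoprotein lipase itself, was 2.51, 4.61 and 3.69 FPKM in the ND livers and 15.1, 18.5 and 17.9 FPKM in the HFD livers (log2 fold change 2.0, SE 0.19, adjusted p = 5.95e-05), and 11.5 to 18.7 FPKM and 12.3 to 15 FPKM in the CLE and LU livers. Cells other than hepatocytes also express Lpl. Beside it, the summed level of 4 stellate cell markers was 60.02 to 86.2 FPKM in the ND livers, 101 to 129 FPKM in the HFD livers, 109 to 155 FPKM in the CLE livers and 101 to 137 FPKM in the LU livers. The macrophage sums given beside Apoe were also higher in each HFD liver than in each ND liver, as were 29.04% of all tested genes. The part of these cells in the Lpl values was not tested. Angptl8, which encodes a regulator of lipoprotein lipase, was 4.92, 2.85 and 7.4 FPKM in the ND livers and 29.7, 28.3 and 19.2 FPKM in the HFD livers (log2 fold change 2.19, SE 0.51, adjusted p = 0.015), a call lost without ND mouse 2 or 3 or HFD mouse 12 (adjusted p up to 0.0574). It spread widely with the supplements, over 25.9, 68.3 and 85.7 FPKM in the CLE livers and 11.9, 5.27 and 27.3 FPKM in the LU livers.

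Pcsk6, a proprotein convertase, rose between ND and HFD livers (0.88, adjusted p = 0.00101) and was lower in CLE than in HFD livers (-0.58, adjusted p = 0.0327), the latter lost without any 1 HFD liver or CLE mouse 4 or 11 (up to 0.141). Lmf1, the lipase maturation factor, rose, with 12.9 to 16.1 FPKM in the ND livers and 19.4 to 24.5 FPKM in the HFD livers (0.57, adjusted p = 0.00936). Pltp, the phospholipid transfer protein, fell, with 33.5 to 76.1 FPKM in the ND livers and 14.5 to 24.1 FPKM in the HFD livers (-1.17, adjusted p = 0.0192, lost without HFD mouse 12 or 15 at 0.0533 and 0.0742).

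**Figure D5:**
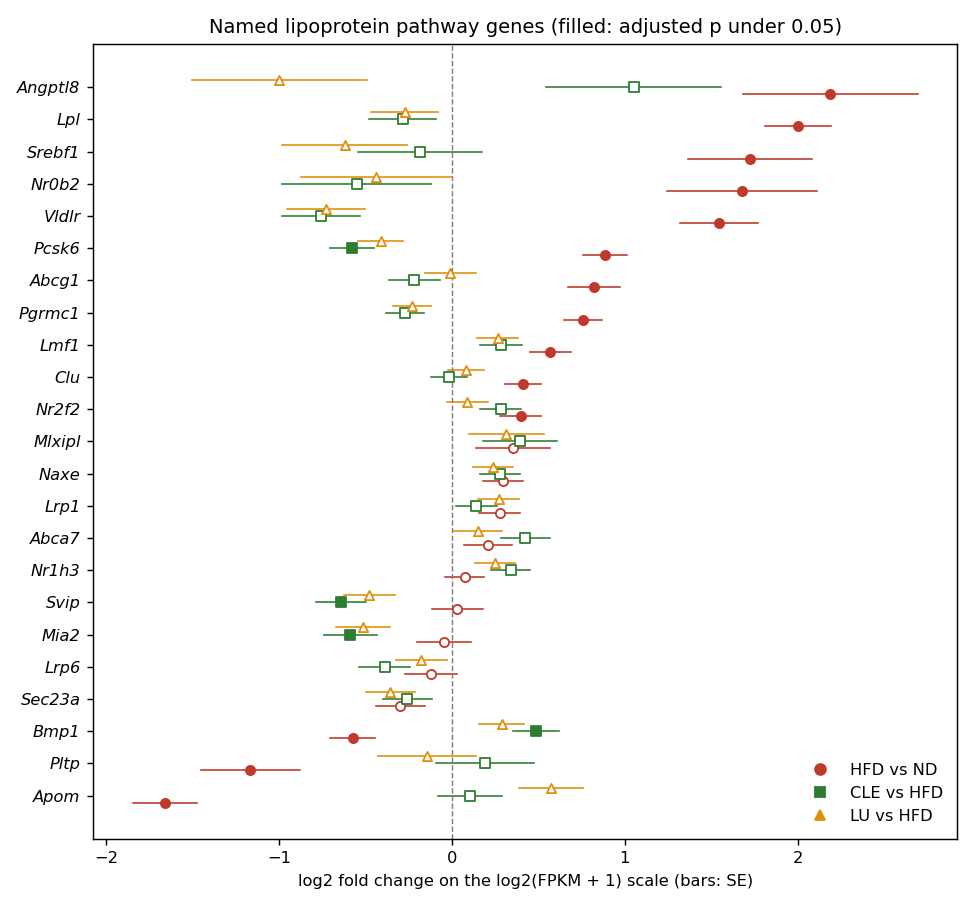
Log2 fold change on the log2(FPKM + 1) scale (horizontal axis) of the named genes of lipoprotein biology, ordered by HFD against ND, with bars for the SE, circles for HFD against ND, squares for CLE against HFD and triangles for LU against HFD, filled where the adjusted p was under 0.05. Angptl8, Lpl and Srebf1 lie farthest to the right and Apom farthest to the left in HFD against ND, and Pcsk6, Svip, Mia2 and Bmp1 have filled squares.

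Among 22 genes of VLDL assembly and export, 1 rose between ND and HFD livers and none fell, beside 9.99% and 2.13% of all tested genes. The gene that rose was Pgrmc1, a membrane protein that binds haem, at 514 to 537 FPKM in the ND livers and 822 to 943 FPKM in the HFD livers (0.76, adjusted p = 0.00104). Compared with the HFD group, 2 of the 22 were lower in the CLE group, beside 3.28% of all tested genes. Mia2, which helps load large cargo at endoplasmic reticulum exit sites, was 205, 226 and 207 FPKM in the HFD livers and 174, 112 and 143 FPKM in the CLE livers (log2 fold change -0.59, SE 0.16, adjusted p = 0.045). Svip, a small protein of endoplasmic reticulum quality control, was 4.7 to 5.32 FPKM in the HFD livers and 2.33 to 3.74 FPKM in the CLE livers (log2 fold change -0.64, SE 0.15, adjusted p = 0.0337). Both calls were lost without any 1 HFD liver or CLE mouse 4 or 11, and that of Mia2 also without any ND liver or LU mouse 2 (adjusted p up to 0.173 for Mia2 and 0.141 for Svip). Sec23a, a coat protein of export vesicles, was lower in CLE than in ND livers (-0.56, adjusted p = 0.0154) and in LU than in ND livers (-0.65, adjusted p = 0.0137), lost without ND mouse 4 in both and without CLE mouse 4 in the first. Of the 4 genes of Apob mRNA editing, none passed against HFD by limma in either supplement. Of the 4, 2 were at an unadjusted p under 0.05 for CLE and 1 for LU, beside 3400 and 2340 of all 11544 tested genes. The editing cofactor A1cf gave -0.59 in the CLE livers (adjusted p = 0.0634) and -0.80 in the LU livers (adjusted p = 0.0593), and is named outside the rule, after its values were seen. Both A1cf values passed with median-of-ratios scaling and with reference transcripts only, and the LU value also with the 2 groups alone. A1cf was lower in LU than in ND livers (adjusted p = 0.0313), a call lost without ND mouse 3 or 4 or LU mouse 2 or 3 (up to 0.113).

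Among the 10 other apolipoproteins tested, 1 rose and 1 fell between ND and HFD livers, beside 9.99% and 2.13% of all tested genes. Apom, the carrier of sphingosine phosphate on HDL, was 132, 94.3 and 108 FPKM in the ND livers and 33.3, 40.3 and 29.9 FPKM in the HFD livers (log2 fold change -1.66, SE 0.19, adjusted p = 1.59e-04). It was 43.7, 41.1 and 28 FPKM in the CLE livers and 54.5, 58.5 and 42.6 FPKM in the LU livers, with every ND liver above all others. Clu, clusterin, was 593 to 609.9 FPKM in the ND livers and 727 to 841 FPKM in the HFD livers (0.41, adjusted p = 0.0236), a call lost without any 1 ND liver or HFD mouse 12 or 18 (adjusted p up to 0.0922), with median-of-ratios scaling and after the length and GC correction.

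Of the 5 genes of HDL lipid loading, Abcg1, a cholesterol exporter, rose between ND and HFD livers (0.82, adjusted p = 0.00402) at 1.22 to 1.4 and 2.55 to 3.44 FPKM. Bmp1, a protease that cleaves the propeptide of apolipoprotein A-I, followed the pattern of Apoa5. It was 50.6, 48.6 and 48.5 FPKM in the ND livers, 30.1, 33.8 and 34.4 FPKM in the HFD livers, 39.9, 58.9 and 42.1 FPKM in the CLE livers and 40.7, 38.6 and 41.3 FPKM in the LU livers. It fell by 0.57 with the HFD (adjusted p = 0.0138, lost without ND mouse 2 or HFD mouse 12 at 0.0556 and 0.0585) and was 0.49 higher in CLE than in HFD livers (adjusted p = 0.0471, lost without each liver in turn except CLE mouse 2, up to 0.148, and after the length and GC correction). Naxe, which binds apolipoprotein A-I, and Abca7, a lipid transporter, were higher in CLE than in ND livers (0.57 and 0.64, adjusted p = 0.00646 and 0.0089), and neither passed after the length and GC correction.

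Among the 12 receptor and uptake genes, 1 rose between ND and HFD livers, beside 9.99% of all tested genes. Vldlr, the VLDL receptor, was 0.592, 0.592 and 0.769 FPKM in the ND livers and 3.38, 4.74 and 3.44 FPKM in the HFD livers (log2 fold change 1.55, SE 0.23, adjusted p = 0.00101), and 0.891 to 2.78 and 1.45 to 2.59 FPKM in the CLE and LU livers (adjusted p = 0.0583 and 0.122 against HFD). Lrp1, a remnant receptor, was higher in LU than in ND livers (0.55, adjusted p = 0.0136, lost without ND mouse 2), and Lrp6 was lower in CLE than in ND livers (-0.51, adjusted p = 0.026, lost without ND mouse 3 or 4 or CLE mouse 4 or 11).

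Of the 18 transcription factors listed as regulators of apolipoprotein genes, 3 rose between ND and HFD livers, beside 9.99% of all tested genes. Srebf1, the main factor of fatty acid synthesis, was 11, 14.1 and 14.5 FPKM in the ND livers, 46.9, 40.1 and 50.4 FPKM in the HFD livers, 39.2, 51.1 and 31.9 FPKM in the CLE livers and 42, 12.6 and 46.7 FPKM in the LU livers (log2 fold change 1.72, SE 0.36, adjusted p = 0.00883 for HFD against ND). LU mouse 3 was alone among the LU livers at an ND level. Nr0b2, a corepressor of nuclear receptors, rose, with 5.61 to 14.4 FPKM in the ND livers and 22.4 to 42.7 FPKM in the HFD livers (1.68, adjusted p = 0.0239, lost without ND mouse 2 or 3 or HFD mouse 12 or 18, up to 0.0905). Nr2f2 rose by 0.40 (adjusted p = 0.0462), a call lost without any 1 ND or HFD liver, CLE mouse 11, or LU mouse 2 or 8 (up to 0.152), with median-of-ratios scaling and after the length and GC correction. None of the 18 passed for CLE or LU against HFD by limma. At an unadjusted p under 0.05 were 4 and 1 of them, beside 3400 and 2340 of all 11544 tested genes. Nr1h3, which encodes an oxysterol receptor, and Mlxipl, a carbohydrate response factor, passed in CLE against ND livers (0.41 and 0.75, adjusted p = 0.0216 and 0.0241). Both calls were lost without ND mouse 4 or CLE mouse 4, that of Nr1h3 also without CLE mouse 11 and that of Mlxipl without ND mouse 2, and neither gene passed with median-of-ratios scaling or after the length and GC correction.

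Of all tested genes, the 5 whose log2 levels over the 12 livers were most like those of Apoa5 were Bmp1 (Pearson's r = 0.939), Cluh (0.937), Maged1 (0.936), Atad3a (0.932) and Gtpbp3 (0.925). These are descriptions over 12 livers that share the same groups, GC content and length differences.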

How the data were processed

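RNA from 12 livers was sequenced, and the authors deposited FPKM values per transcript, 152210 rows. Per the labels and the study's methods, reads were aligned with TopHat2 2.0.12 and Bowtie2 2.2.3 and transcripts assembled and quantified with Cufflinks 2.2.1. The genome build is not given in the sources used here, and the table's column for the number of samples reads 30 in every row, while 12 livers were analysed here. No counts or depths were used, so the depth behind each FPKM value is unknown and no counting interval can be given. Transcripts were summed per gene name, and 6316 transcripts without a name were left out. Apoc2 was taken by transcript from rows named Apoc4.

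The 11544 genes whose mean reached 0.5 FPKM were tested on log2(FPKM + 1), computed from the deposited values, with limma 3.58.1 (R 4.3.3, trend), all 12 livers in one fit, Benjamini-Hochberg adjustment over all tested genes and two-sided tests, in 6 comparisons. The pseudocount understates the change of low genes. All 9 genes were above the minimum. The members and lists were chosen with earlier results of these data known. Beyond the 9 genes, the text names the 25 genes of the pathway lists with the smallest adjusted p among those passing in any comparison, of which 2 are counted but not reported here by name. Alternatives were another pseudocount (0.1), no filter, median-of-ratios scaling, the transcript of highest mean, reference transcripts only, the 2 groups alone, a replicate block and each liver left out. GENCODE M21 gene assignment, a correction for gene length and GC content, and the spanning Apob transcripts were chosen after seeing the data. Scripts were tested on simulated data.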

Additional observations from a re-analysis of the deposited data

How the results depend on the processing

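For single genes of the 9, 1104 values under other settings gave no called change of the opposite direction, 1029 stayed on the same side of the threshold, 49 lost a call and 26 gained one. Most of the 1104 values belong to results that did not pass in the fit reported and so had no call to lose. All 49 losses fell on the calls reported, so the pooled counts do not show how stable those calls were. The counts of passing genes moved by over 1.5 times as follows, given as the 9 genes, then pathway genes, then all genes where each moved, and the cause was not tested. For HFD against ND (3, 16 and 1399 in the fit reported), the transcript of highest mean gave 1, 8 and 647 and reference transcripts only 1, 10 and 718. For CLE against HFD (2, 5 and 695), no filter gave 1, 1 and 125, the transcript of highest mean 1, 3 and 263, the 2 groups alone 0, 0 and 95, and the length and GC correction 2 pathway genes. For LU against HFD (0, 1 and 119), the spanning Apob transcripts gave 1 of the 9 genes, no filter 0 pathway genes and 56 of all, reference transcripts only 4 pathway genes, and the 2 groups alone 3 pathway genes and 272 of all. For CLE against LU (1 of all genes), no filter gave 3, and the transcript of highest mean and reference transcripts only gave 2 each. For CLE against ND (2, 26 and 3120), no filter and the transcript of highest mean gave 1 of the 9 genes each, and the 2 groups alone 1, 16 and 1812. For LU against ND (2, 18 and 1730), no filter gave 1 of the 9 genes, the transcript of highest mean 0 and reference transcripts only 1.

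With 1 liver left out, the 9 genes, pathway genes and all genes passing ranged over 2 to 5, 10 to 18 and 659 to 1660 for HFD against ND, 0 to 2, 0 to 17 and 28 to 2187 for CLE against HFD, and 0 to 2, 0 to 4 and 11 to 545 for LU against HFD. They ranged over 0 to 0, 0 to 0 and 1 to 3 for CLE against LU, 1 to 4, 14 to 28 and 1598 to 3681 for CLE against ND, and 1 to 4, 9 to 23 and 640 to 2494 for LU against ND.

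The replicate block on shared mouse numbers gave 1 of the 9 genes (Apoa4), 9 pathway genes and 1070 of all genes for CLE against ND, and 836 of all genes for LU against ND. In CLE against ND, Mttp was then at -0.56 (adjusted p = 0.234 by limma), Apoe at 0.74 (0.472) and Apoa4 at -1.04 (0.0483). The 2 livers that share a number had deviations correlated at -0.261 and -0.096 in the first and 0.085 and 0.181 in the second. So few correlations cannot show whether livers with the same number share more than that number. No paired analysis was possible for the other comparisons because the groups share fewer than 2 numbers.

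With 3 livers a group and unknown depth, the intervals were widest for Apoa4 and narrowest for Lipc. Where a gene did not pass, changes of a size within its interval were not excluded.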
